A study of Nothobranchius furzeri with 8 samples.

Results

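The miRNA families mir-15 and mir-16 were followed in the brain of the killifish Nothobranchius furzeri, an African annual fish whose adult life lasts only months. They are 2 of the 324 features in the deposited count table and were chosen by their names, with the species prefix ignored, and both passed the filter on low counts. Small RNA libraries were made from total brain RNA of males of the strain MZM-04/10p, from fish aged 6 weeks (4 libraries) or 26 weeks (4 libraries), with no treatment or genetic change in the labels of either group. The number 22 stands in the titles where the age label reads 26 weeks, and the label was followed. Libraries are called by their age and by the number I to IV in their titles. The labels do not say that libraries came from separate fish, so a p-value here weighs a difference against the spread of these libraries, part of which may be technical.

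In vertebrates, mir-15 and mir-16 genes lie beside each other and are made from shared primary transcripts, with 1 such pair inside the gene of the condensin subunit Smc4. Their mature products share a seed, the stretch at the 5′ end that pairs with target transcripts. In mammalian cells they repress cyclin D1, cyclin E1 and the kinase Cdk6, which drive entry into the cell cycle, and the survival factor Bcl2. In newborn mouse heart, members of this group have been tied to the halt of cell division. In many tissues mir-16 and the related mir-103 serve as reference miRNAs in PCR assays, against which other miRNAs are read. The features here are named per family, without arm or paralogue, so a change of 1 paralogue within a feature cannot be seen. Names of relatives that carry the same seed core, or that core shifted along the miRNA, numbered 9 on the list used, and 1 of them, mir-103, had a row. How reads of such close relatives were divided among mir-15, mir-16 and mir-103 is not given in the sources used here, so their separate values are uncertain.

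Total counts ran from 2992917 to 4151620 at 6 weeks and from 3347810 to 5715409 at 26 weeks. The TMM factors, which correct these totals for a shifted composition, ran from 1.02 to 1.16 at 6 weeks and from 0.861 to 1.11 at 26 weeks. Every CPM below is a count divided by the total so scaled, in the usual CPM unit, and a log2 fold change is 26 weeks over 6 weeks.

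Both families were among the well-expressed miRNAs of the brain, and mir-16 was the more abundant in every library. By mean CPM over the 8 libraries mir-16 ranked 25 and mir-15 ranked 32 among 212 tested features. The row above mir-16 was the neuronal mir-124 and the row below it was mir-103, at 5222 ± 795 CPM against 5335 ± 573 for mir-16 (SD, n = 8 libraries). The row above mir-15 was mir-129 at 3421 ± 500 CPM and the row below was mir-135 at 2734 ± 841 CPM, around mir-15 at 3086 ± 375 CPM (SD, n = 8). These neighbours lay within each other's spread, and since adapter ligation favours some sequences over others, the order of different miRNAs is only approximate. Ranked by raw count within a library, mir-16 stood between 19 and 21 at 6 weeks and between 25 and 27 at 26 weeks. The rank of mir-15 stood between 31 and 33 at 6 weeks and between 29 and 33 at 26 weeks.

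In the 6-week libraries I to IV, mir-16 was counted 19831, 20354, 26389 and 17376 times, which gave 5695, 5733, 6242 and 5336 CPM. In the 26-week libraries it was counted 16974, 22546, 24765 and 20883 times, which gave 4556, 4580, 5242 and 5298 CPM. All 4 older libraries lay below all 4 younger ones, although the gap between the highest older library (IV, 5298 CPM) and the lowest younger one (IV, 5336 CPM) was small. Groups did not overlap, with the older ones lower, in 7.55% of all tested features. The mean of the younger libraries was 5751 ± 373 CPM and that of the older ones 4919 ± 406 CPM (SD over 4 libraries each), or 0.855-fold, with a 95% interval of 0.722 to 1.01. By edgeR's quasi-likelihood test the log2 fold change was -0.23 ± 0.11 (SE), which did not pass after Benjamini-Hochberg adjustment (adjusted p = 0.205, unadjusted p = 0.0668). Between libraries of the same number, log2 CPM of mir-16 differed by -0.32, -0.32, -0.25 and -0.010 for I to IV. It was lower at 26 weeks in 4 of 4, as any pairing of groups without overlap must give. Without the 26-week library II the log2 fold change was -0.076 and without the 6-week library II it was -0.11. Over all fits without 1 library it ran from -0.23 to -0.076, with adjusted p from 0.223 to 0.791 (edgeR, Benjamini-Hochberg). Filter and TMM factors were redone in each such fit. The median of all tested features was -0.060 with all libraries, 0.049 without the 26-week II and 0.044 without the 6-week II. Relative to the median, mir-16 stood at -0.17, -0.12 and -0.15 in the same order. That relative value ran from -0.23 to -0.11 over all fits without 1 library.

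For mir-15, the 6-week libraries held 10913, 10758, 14826 and 9356 counts, or 3134, 3030, 3507 and 2873 CPM. The 26-week libraries held 9357, 14741, 17542 and 11526 counts, or 2512, 2994, 3713 and 2924 CPM. The ages overlapped, and both the lowest library (I) and the highest (III) were at 26 weeks. Means were 3136 ± 269 and 3036 ± 499 CPM (SD, n = 4 each), or 0.968-fold with a 95% interval of 0.773 to 1.21. The edgeR log2 fold change was -0.047 ± 0.14 (SE, Benjamini-Hochberg adjusted p = 0.866). Its sign changed without any 1 of 6 libraries (6-week II, III or IV, 26-week I, II or IV), the values without 1 library running from -0.074 to 0.076. The median of all tested features moved as well, to 0.044 without the 6-week II and 0.036 without the 6-week IV. Relative to the median, mir-15 stood at 0.013 and 0.00096 there, against 0.013 with all libraries. That relative value ran from -0.086 to 0.12 over all fits without 1 library. Same-number differences in log2 CPM were -0.32 for I, -0.017 for II, 0.082 for III and 0.025 for IV. A change of a size within the 95% interval could not be told from none with these libraries.

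**Figure D1:**
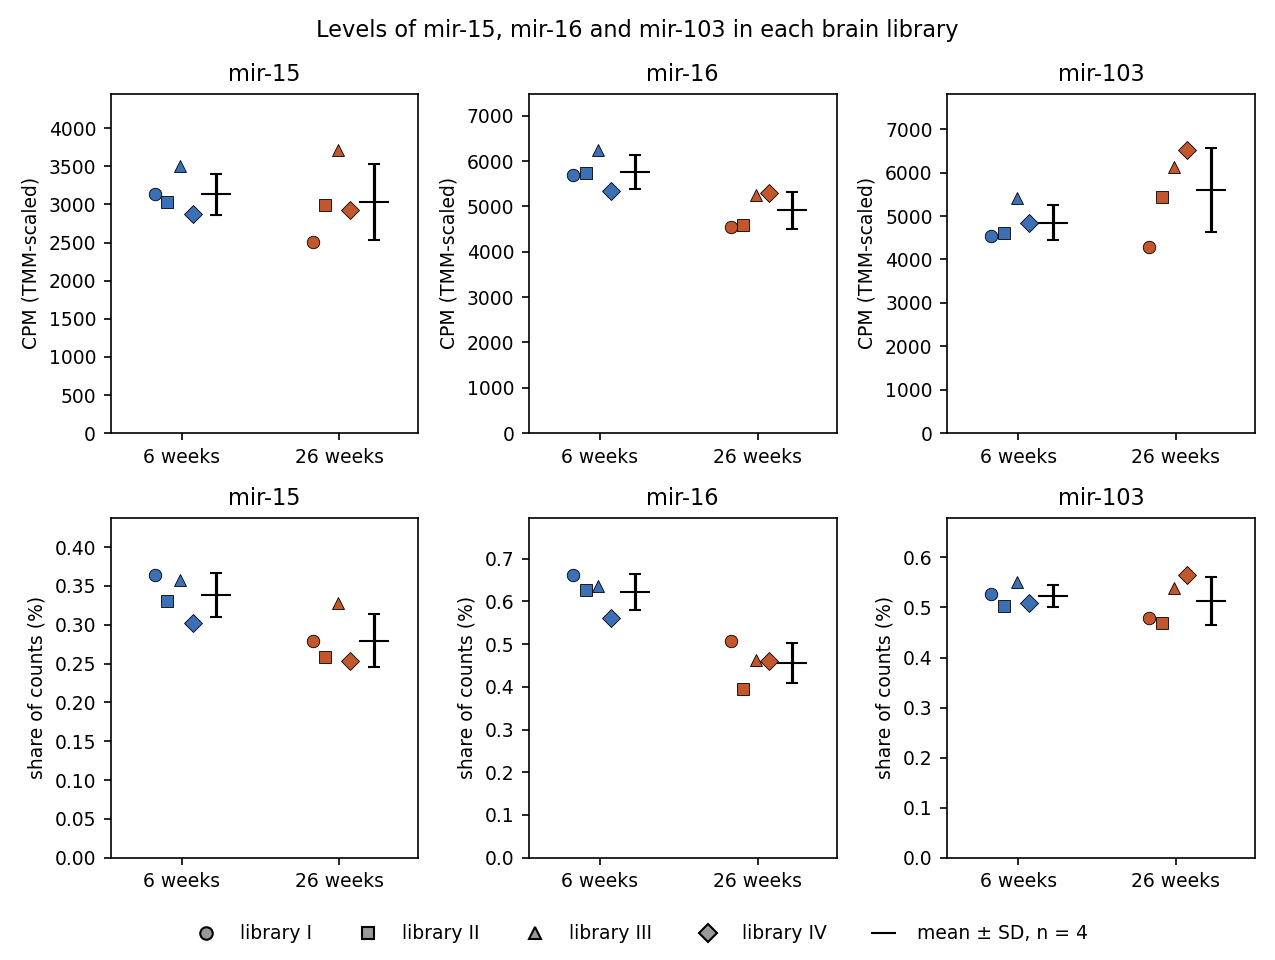
CPM (top) and share of all counts in percent (bottom) of mir-15, mir-16 and mir-103 in each library at 6 weeks (blue) and 26 weeks (orange), with marker shapes for the library numbers and mean ± SD (n = 4) in black. For mir-16 the 26-week libraries lie between 4556 and 5298 CPM and all 6-week libraries at 5336 CPM or above, whereas the ages overlap for mir-15 and mir-103.

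Neither family was therefore called, 0 of 2, where 14.2% of the tested features were (30 of 212, 22 higher and 8 lower at 26 weeks). At an unadjusted edgeR p under 0.05 the count was also 0 of 2, against 29.2% of all tested features. After adjustment it was 0 of 2 with DESeq2, which called 17.9% of the features, and with limma-voom, which called 14.6%. The median log2 fold change of all tested features was -0.060. Against that median mir-15 stood at 0.013 and mir-16 at -0.17 on the log2 scale.

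**Figure D2:**
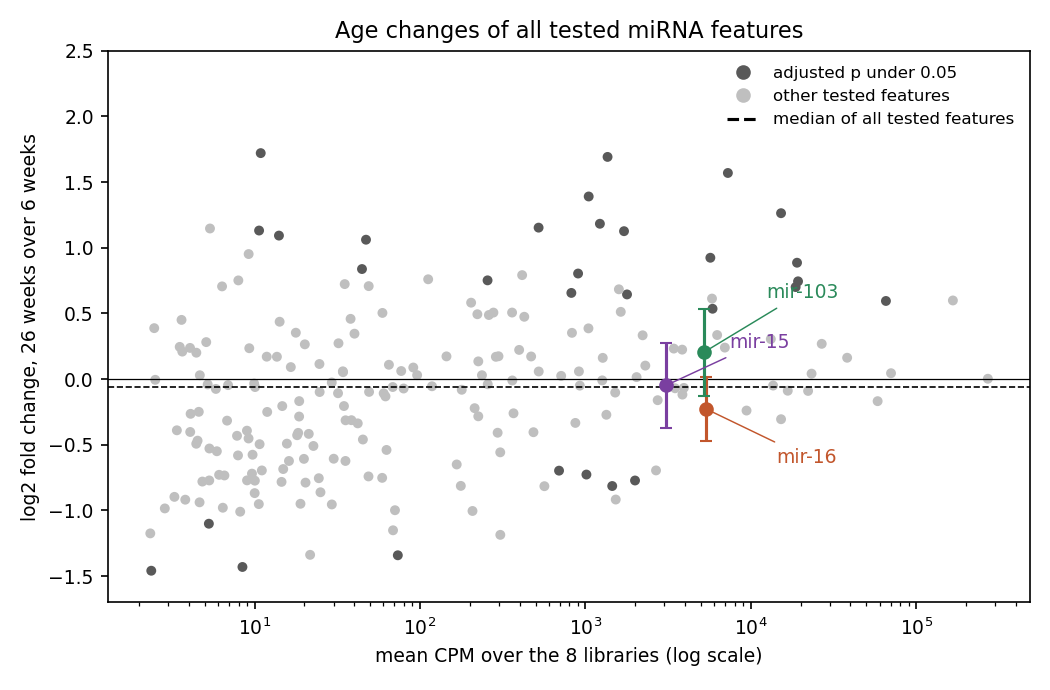
Log2 fold change from 6 to 26 weeks against mean CPM (log scale) for the 212 tested features, called ones in dark grey, with mir-15, mir-16 and mir-103 in colour with their 95% intervals and the median of all features as a dashed line. The interval of mir-15 spans both lines, that of mir-16 reaches from -0.47 to 0.019, and that of mir-103 from -0.12 to 0.54.

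Scaling decided the call of mir-16. As a share of all counts, mir-16 took 0.663%, 0.626%, 0.636% and 0.562% in the 6-week libraries I to IV and 0.507%, 0.394%, 0.462% and 0.460% in the 26-week libraries, again with no overlap. Means were 0.621 ± 0.0426% and 0.456 ± 0.0463% (SD over 4 libraries each). The exact two-sided permutation test gave p = 0.0286, which no arrangement of 4 and 4 libraries can undercut, and 0.0857 after Benjamini-Hochberg adjustment over 3 library measures. The mir-16 share was lower at 26 weeks in 4 of 4 same-number pairs, and a sign flip over these pairs gave an exact permutation p of 0.125, the smallest it allows. Groups without overlap give both results whatever the pairing, so neither adds to the lack of overlap. Shares were lower at 26 weeks without overlap in 13.7% of the tested features. The widest Wilson 95% interval of a mir-16 share, in the 6-week library I, ran from 0.653% to 0.672%, so counting error was small beside the spread between libraries. For mir-15 the shares were 0.365%, 0.331%, 0.357% and 0.303% at 6 weeks and 0.279%, 0.258%, 0.327% and 0.254% at 26 weeks. Only the 26-week library III reached into the range of the younger ones, and means were 0.339 ± 0.0282% and 0.280 ± 0.0338% (SD, n = 4 each, exact permutation p = 0.0571, adjusted 0.0857). The mir-15 share was lower in 4 of 4 pairs (exact sign-flip permutation p = 0.125). How many of all features had a lower share in 4 of 4 pairs was not counted. With total counts as the scaling, the median log2 fold change of all features was itself -0.29.

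With total counts alone as the scaling, mir-16 was called lower (log2 -0.45 ± 0.10, SE, edgeR with Benjamini-Hochberg adjustment, adjusted p = 0.0241), as were 5.66% of all tested features. With upper-quartile factors it was also called (-0.40 ± 0.10, adjusted p = 0.0360), beside 5.19% of features that were lower. These scalings moved the median of all features from -0.060 to -0.29 and -0.24, and the split of all calls from 22 higher and 8 lower to 15 and 12 and to 15 and 11. Relative to that median, mir-16 was at -0.17 with TMM and at -0.16 with each of RLE factors, upper-quartile factors and total counts. In the same order of scalings mir-15 stood 0.013, 0.021, 0.029 and 0.011 above the median. It passed in none of these scalings, and its lowest adjusted p was 0.142, with total counts (log2 -0.28 ± 0.12, SE, edgeR, Benjamini-Hochberg). With total counts the unadjusted edgeR p was under 0.05 for 2 of 2 families, as it was for 32.5% of all tested features.

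**Figure D3:**
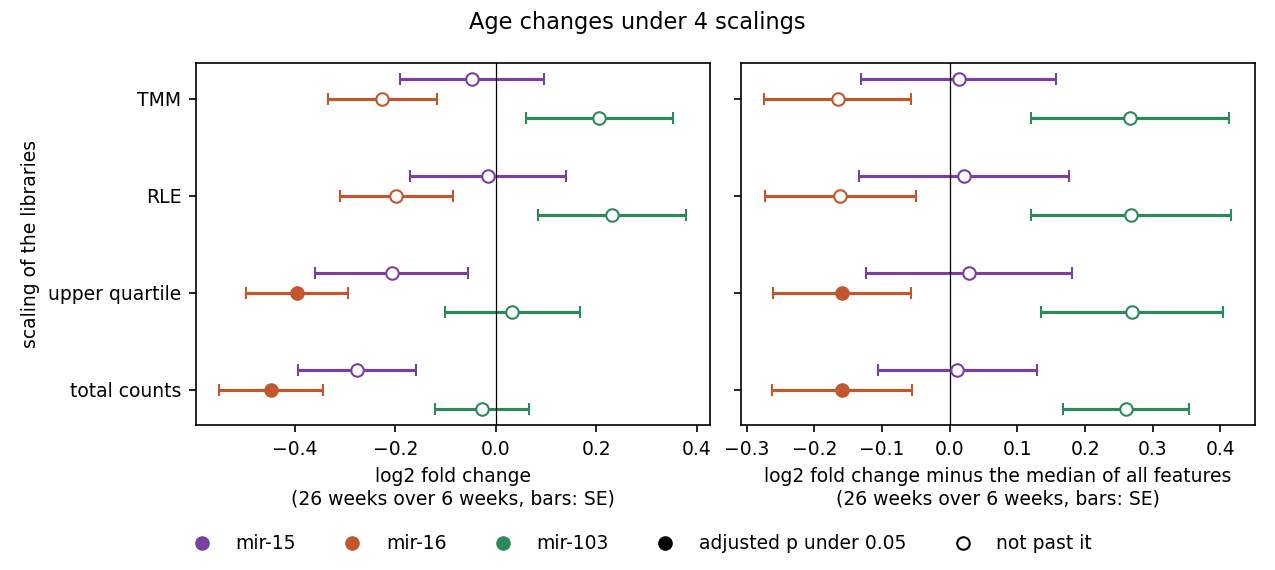
Log2 fold change of mir-15, mir-16 and mir-103 under 4 scalings of the libraries (left) and the same value after the median of all tested features was taken off (right), with SE bars and filled markers where the fold change on the left passed an adjusted p of 0.05. On the left all 3 families move to lower values with upper-quartile factors and total counts, mir-16 to -0.45, and on the right mir-16 stays between -0.17 and -0.16.

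A ratio of counts within a library needs no scaling factor. In the 6-week libraries I to IV, mir-16 was counted 1.82, 1.89, 1.78 and 1.86 times as often as mir-15. At 26 weeks the ratios were 1.81, 1.53, 1.41 and 1.81. The younger libraries lay close together, and the older ones were spread more widely, with I and IV within the younger range and II and III below it. The 26-week libraries II and III were also the deepest of the series, with 5715409 and 5357039 counts, and the part of depth in this ratio was not tested. In the edgeR fit with the log2 total as a covariate, the log2 fold changes were -0.30 for mir-15 and -0.31 for mir-16. Total counts were lower at 26 weeks in 0 of 4 same-number pairs, so depth goes with age here. That fit therefore cannot tell the 2 apart. On the log2 scale the mean ratio was 0.88 ± 0.038 in the younger and 0.71 ± 0.18 in the older libraries (SD, 4 each), a difference of -0.17 that did not pass (exact two-sided permutation p = 0.114, also 0.114 after adjustment over 3 measures). The same-number differences were -0.0025 for I, -0.31 for II, -0.33 for III and -0.036 for IV. Without the 26-week library III the difference was -0.10 (exact permutation p = 0.229, n = 4 and 3). The data therefore do not separate the age changes of the families from each other, nor show them to be equal.

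The relative mir-103, which carries the seed core of mir-15 and mir-16 shifted along the miRNA and is known in mammals for control of insulin signalling, was at 4533, 4609, 5416 and 4841 CPM at 6 weeks. At 26 weeks it was at 4297, 5441, 6120 and 6519 CPM. The ages overlapped, with the older libraries holding both the lowest and the highest value. Its log2 fold change was 0.21 ± 0.15 (SE, edgeR, Benjamini-Hochberg adjusted p = 0.393), with a sign that turned with total counts (-0.028).

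Set against mir-103, mir-16 was lower at 26 weeks. In the 6-week libraries I to IV, mir-16 was counted 1.26, 1.24, 1.15 and 1.10 times as often as mir-103. In the 26-week libraries the ratio was 1.06, 0.842, 0.857 and 0.813. All younger libraries thus had more counts of mir-16 than of mir-103, and 3 of the 4 older ones had fewer. Since the order of different miRNAs is only approximate, the crossing of 1 has no meaning of its own. The groups did not overlap, as was so with lower values at 26 weeks for 9.48% of the features set against mir-103. The older libraries below 1 (II, III and IV) were also the deepest of the series, with 5715409, 5357039 and 4542396 counts. Library I at 26 weeks had 3347810, and the part of depth in this ratio was not tested. The ratio of mir-15 to mir-103 was 0.691, 0.657, 0.648 and 0.593 at 6 weeks and 0.585, 0.550, 0.607 and 0.449 at 26 weeks, where the older library III lay above the younger library IV. These ratios to mir-103 were looked at after the values were known and have no test of their own. The edgeR fit scaled to mir-16 bears on the same contrast and was likewise not planned for mir-103. It called mir-103 higher (log2 0.42 ± 0.12, SE, Benjamini-Hochberg adjusted p = 0.0290), as it did 22.7% of the tested features.

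**Figure D4:**
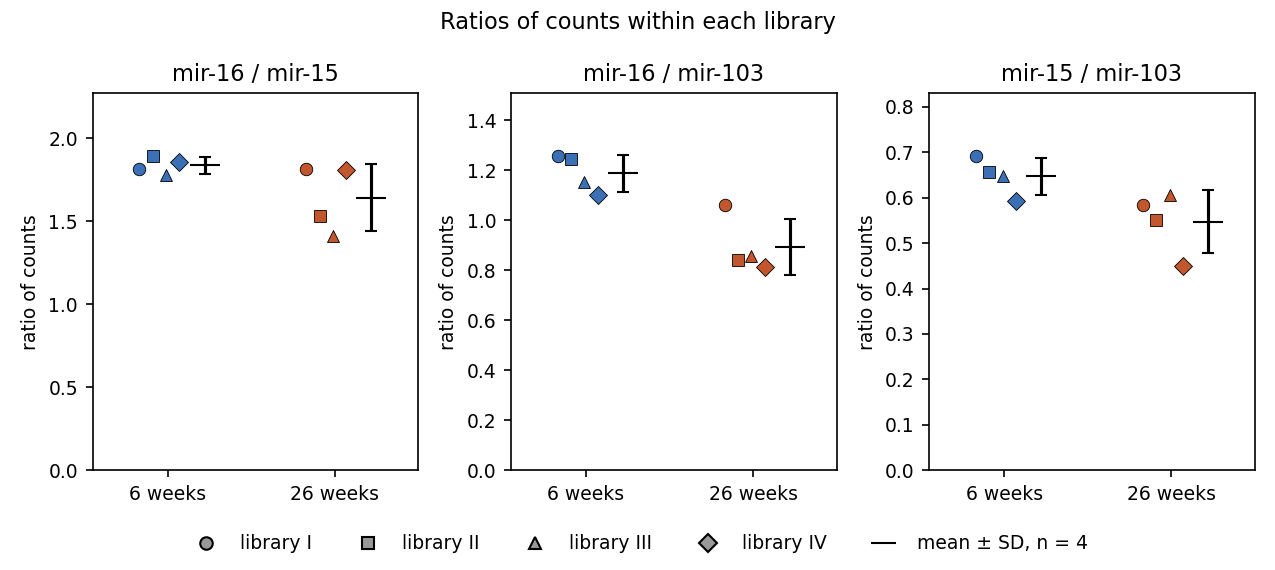
Ratios of counts within each library, mir-16 to mir-15, mir-16 to mir-103 and mir-15 to mir-103, at 6 weeks (blue) and 26 weeks (orange), with mean ± SD (n = 4). The 26-week libraries II and III lie lowest for mir-16 to mir-15, at 1.53 and 1.41, and the ages do not overlap for mir-16 to mir-103.

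Over the 8 libraries the SD of log2 CPM was 0.16 for mir-16, the 4th smallest of the 53 tested features with a mean of at least 1000 CPM, and 0.17 for mir-15, the 8th smallest, against a median of 0.31 that includes families that changed with age. For mir-103 it was 0.22, the 15th smallest. Within an age, the coefficient of variation of mir-16 was 6.48% at 6 weeks and 8.25% at 26 weeks, the latter the second smallest of the 53. That of mir-15 was 8.59% and 16.4%, near the medians of 10.7% and 17.4%. These ranks and values are for TMM-scaled CPM, and the order of families depends on the scaling. As a share of counts, mir-103 varied less within an age (4.13% at 6 weeks and 9.19% at 26 weeks) than mir-16 (6.86% and 10.2%). Counting error alone would give at most 1.03% for mir-15 and 0.768% for mir-16, less than the spread between libraries. When every library was scaled to its mir-16 count, as an assay read against mir-16 would do, 55 features were called, 48 higher (22.7% of those tested) and 7 lower, and the median of all features moved to 0.17. Of these, 29 were among the 30 called with TMM.

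Likeness was measured as the Pearson correlation of log2 CPM over the 8 libraries with each of 172 other named families, as a description, since all values share the library scaling. The families most like mir-16 were mir-454 (0.88), mir-217 (0.84) and mir-42 (0.83). Since mir-16 was itself lower in every older library, a pick by this correlation favours families with the same age split. Each of mir-454, mir-217 and mir-42 held less at 26 weeks in every library than in any at 6 weeks. The same was so for 7.55% of all tested features. With the age means taken off, the correlations of these families were 0.68, 0.54 and 0.61. On that measure the most like mir-16 were mir-126, mir-455 and mir-423 (0.86 each), whose means were higher at 26 weeks, and mir-103 came next (0.78). Of the families most like mir-16 on the first measure, mir-454 and mir-217 were called lower, at -0.70 ± 0.16 and -0.73 ± 0.18 on the log2 scale (SE), where 3.77% of all tested features were. Their adjusted p-values in the edgeR fit were 0.0179 and 0.0212. The third, mir-42, was scarce, at 8.21 ± 0.770 and 4.93 ± 1.93 CPM (SD, n = 4 each). The families most like mir-15 were mir-31 (0.82), mir-1265 (0.79) and mir-609 (0.79). None of them was called, where 14.2% of all tested features were, and mir-31 and mir-1265 were below 25 CPM in every library. With the age means taken off, the families most like mir-15 were mir-489 (0.94), mir-460 (0.91) and mir-46 (0.90). The families given for this second measure fall outside the naming rule and were named after their values were seen. The correlation of mir-15 with mir-16 was 0.59, and 0.72 with the age means taken off, in place 12 by likeness to mir-15 and place 20 by likeness to mir-16.

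Other miRNAs that act on the cell cycle were read from lists of names. These lists were chosen with earlier results of these data known, so their counts are a description and no test of enrichment. Of 13 tested miRNAs known to restrain proliferation, 4 were called higher and 0 lower, against 10.4% and 3.77% of all tested features. The 4 were mir-29, mir-101, mir-124 and mir-26, at log2 changes of 1.69, 1.57, 0.92 and 0.60, and the list's median was 0.27 against -0.060 for all features. With total counts 3 of the 13 were called higher and with upper-quartile factors 2, where 7.08% of all features were in each. Scaled to mir-16 the count was 7, where 22.7% of all features were higher. Of 11 tested miRNAs linked to proliferation, 1 was called higher and 1 lower, with a median of -0.0095. The higher one was mir-430, known for removing maternal RNA in early fish embryos, at 1.72 ± 0.38 (SE, edgeR, Benjamini-Hochberg adjusted p = 0.0167), and the lower one was mir-454. With total counts mir-301, named after its values were seen, was called lower as well. Neither mir-15 nor mir-16 had a log2 change as large in size as the smallest called one of the restraining list, 0.60. Since a call selects large changes, this does not set them apart from the list as a whole, whose values ran from -0.13 to 1.69.

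Markers of brain cells were present at both ages, with the neuronal mir-124, mir-9 and mir-128 summing to 127511 to 144767 CPM at 6 weeks and 124028 to 143298 CPM at 26 weeks. Of these, 1 of 3 was called higher, mir-124, which is a small part of the sum. Calls in this and the next lists are with TMM, and mir-124 was not called with upper-quartile factors or total counts. For this and the next lists, the shares of all tested features were 10.4% called higher and 3.77% called lower. Summed levels of the oligodendrocyte mir-219 and mir-338 were 8817 to 10347 CPM at 6 weeks and 18661 to 26728 CPM at 26 weeks, with 2 of 2 called higher. The families mir-223, mir-142 and mir-150 of microglia and leucocytes summed to 244 to 264 and 369 to 529 CPM, with 3 of 3 higher. The erythroid mir-451 and mir-144 summed to 754 to 973 and 1152 to 1311 CPM, with 1 of 2 higher. That one was mir-451 (log2 1.15), and mir-144 was at 0.058. Red and white blood cells of mammals are rich in mir-16, and the part of such cells in the level of mir-16 was not tested. The vessel wall mir-126, mir-143 and mir-145 summed to 9022 to 13193 and 10663 to 18556 CPM, with 0 of 3 called. Muscle names had 3 of 4 tested (1107 to 1319 and 1175 to 1604 CPM) and liver names 3 of 3 (93.8 to 120 and 75.9 to 202 CPM), with 0 called in both lists. Lists of 3 are too short for 0 called to be told from the shares over all features. In bulk tissue, fewer cells of a type and less of a miRNA per cell cannot be told apart.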

How the data were processed

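Per the labels' protocols, libraries of small RNA were prepared from brain total RNA with Illumina's TruSeq chemistry for small RNA. The submitters' processing notes name BWA 0.7.12-r1039, SAMtools 1.3.1-9, Trimmomatic 0.36 and bcl2fastq 1.8.4. The authors deposited raw whole counts, with 235 rows for named families and 89 for predicted miRNAs. No source used here gives the build, the annotation, the counting tool or the treatment of reads shared by relatives.

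Counts were fitted in R 4.3.3 with edgeR 4.0.16 (quasi-likelihood test, TMM, filterByExpr, two-sided, all 8 libraries, no covariate), adjusted by Benjamini-Hochberg over the 212 tested features, with a threshold of 0.05. The filter left out 112 features with 0.00948% of the counts. The SE was taken from the fold change and its F statistic, and 95% intervals use the fit's degrees of freedom. Log2 CPM used a prior count of 2. Shares and ratios were compared by exact permutation over the 70 assignments of 4 against 4 (SciPy 1.17.1). Intervals on shares cover counting error only, since no molecular identifiers are named. On counts simulated for these 212 features, the fit called 100% of 30 features changed 2-fold and 86.7% of 30 changed 1.5-fold, with 3 false calls among 152. The simulation gave every feature the same dispersion and no effect of the library number. Its recovery therefore does not hold for features that vary more between libraries. No feature was changed by less than 1.5-fold, so recovery of changes as small as those of mir-16 (0.855-fold) and mir-15 (0.968-fold) was not simulated.

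The alternatives changed the scaling (RLE, upper quartile, total counts, TMM with the 5 most abundant features set aside, mir-16), the filter (none, or at least 10 CPM in 4 libraries), the tool (DESeq2 1.42.0, voom of limma 3.58.1, a robust edgeR fit), the covariates (library number as a block, log2 total) and the libraries left out. The numbers pair the libraries: deviations from the age means correlated by 0.287 to 0.528 between libraries of the same number, each above the limit of 0.1. What a number marks is not in the labels.

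The named rows are the members, relatives with the seed core, the called or lowest-p members of both proliferation lists, the 3 families most like each member and its neighbours in abundance. Members and lists were chosen with earlier results of these data known.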

Additional observations from a re-analysis of the deposited data

How the results depend on the processing

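For mir-16 the log2 fold change was negative in all 20 alternatives, from -0.45 to -0.076, and passed the threshold in 2 of them, with upper-quartile factors (-0.40) and total counts (-0.45). Without 1 library it ran from -0.23 to -0.076, the last without the 26-week library II. The median of all features moved in these fits too, and relative to it mir-16 ran from -0.23 to -0.11. With the log2 total as a covariate mir-16 was at -0.31 (-0.36 against the median of all features), not called. For mir-15, values ran from -0.30 with the log2 total as a covariate (-0.35 against the median of all features) and -0.28 with total counts to 0.076, with no call in any. Its sign turned with no filter (0.056) and without both libraries numbered I (0.013), and the values without 1 library ran from -0.074 to 0.076. Relative to the median of all features, which moved too, mir-15 ran from -0.086 to 0.12 without 1 library. With the library number as a block, mir-15 was at -0.057 and mir-16 at -0.23 (edgeR, Benjamini-Hochberg adjusted p = 0.734 and 0.124), and the block changed the call of neither; for the log2 ratio of mir-16 to mir-15 the paired difference was -0.17 (exact sign-flip permutation p = 0.125, the smallest that 4 pairs can give). For mir-103 the sign turned with total counts (-0.028) and with the log2 total as a covariate (-0.045), and it was called only when scaled to mir-16 (0.42). The mir-16 share kept its lower value at 26 weeks without any 1 library (differences from -0.185 to -0.145 percentage points). The exact permutation test gave p = 0.0571 each time, the smallest that 4 against 3 can give. Groups without overlap stay so when 1 library is left out, so the direction and this p were fixed in advance. With the number as a block, a setting chosen after seeing the data, that share difference was -0.166 (exact sign-flip permutation p = 0.125, likewise fixed by the lack of overlap).

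Called features numbered 30 with TMM, 59 with the block (35 higher, 24 lower), 4 with the log2 total as a covariate, 50 without both libraries numbered I (30 and 20), 55 scaled to mir-16 and 23 to 47 without 1 library, the highest without the 26-week library I. With no filter 26 were called, 23 higher and 3 lower. The cause of these differences was not tested. The lowest count of either family in a library was 9356.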
